A study of Homo sapiens with 4 samples.

Results

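The matrix metalloproteases (MMP), the ADAM and ADAMTS proteases, the kallikreins (KLK), the cathepsins (CTS) and the tissue inhibitors of metalloproteases (TIMP) were followed in T47D cells treated with the progestin R5020. The rule takes members by symbol alone, as every gene named MMP, ADAM, ADAMTS, TIMP or KLK followed by a number or CTS followed by a single letter. The rule found 101 of the 23287 gene symbols listed, with 169 RefSeq transcripts, and they comprised 24 MMP, 25 ADAM, 20 ADAMTS, 15 KLK, 13 CTS and 4 TIMP genes. The name "secreted protease" covers only some of them, since 8 of the MMP entries are of the membrane-anchored kind and protein-coding ADAMs are held in the membrane. Cathepsins mostly work in the lysosome, 8 ADAMs lack the catalytic zinc site and TIMPs are inhibitors. The rule also takes noncoding or pseudogene entries such as ADAM1, ADAM21P1 and ADAMTS9-AS2, and it passes over CTSL1 and CTSL2, whose symbols end in a digit.

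T47D is an established luminal breast cancer line that carries much progesterone receptor (PR), grown in RPMI with fetal calf serum. For RNA, cells kept in charcoal-stripped serum, which lacks steroid hormones, for 24 h received 10 nM R5020, a synthetic progestin, or the vehicle ethanol (EtOH) for 3 h, and poly(A)+ RNA was sequenced from 1 library of each kind. For binding, PR was immunoprecipitated from cells kept in stripped serum for 3 days and given 10 nM R5020 for 1 h, and the resulting sites were called against an input DNA library that was not analysed here. There was no replicate of either condition and no vehicle PR library, so each difference below compares 2 RNA libraries, carries no error between cultures and was given no test, and in bulk RNA fewer cells of a kind and less RNA per cell cannot be told apart.

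Metalloproteases of these families cut collagens, proteoglycans and cell-surface proteins, and TIMPs bind the catalytic zinc of MMPs and of some ADAMs and block it. ADAMs release the outer parts of growth factors, cytokines and receptors from the cell surface, and cathepsins degrade proteins in lysosomes and, when released, outside the cell. Agonist-bound PR binds DNA at an inverted repeat of the half-sites AGAACA and TGTTCT with 3 bases between them, or at single half-sites, and in the breast progesterone acts on ductal branching, during which the matrix around the ducts is remodelled.

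Sequences of PR binding sites at the changed genes are shown first, with one from a gene that hardly changed, so that their half-sites can be compared. Each is the central 300 bases of a site in hg19, read from the plus strand of GRCh37, and capitals mark an exact half-site. The score of a site is the one given by the peak caller, from 50 to 1965.17 over all sites, and is higher for a stronger enrichment call. The sites with the highest score within 50 kb of the changed genes were taken. For CTSH it lies in an intron of CTSH, at chr15:79236653-79236879 (73 bases next to it lie in an annotated UTR and are not printed). For ADAMTS15 it is intergenic, at chr11:130270853-130271152, and lies nearer to the adjoining gene ADAMTS8. A second ADAMTS15 site, at chr11:130331455-130331754, runs across the end of a coding exon into an intron, and the MMP17 site, at chr12:132314851-132315150, lies in an intron of MMP17. These last sites were chosen after their values were seen, one because it lies inside a gene that was higher and the other because its score was the highest inside any retained member.
CTSH: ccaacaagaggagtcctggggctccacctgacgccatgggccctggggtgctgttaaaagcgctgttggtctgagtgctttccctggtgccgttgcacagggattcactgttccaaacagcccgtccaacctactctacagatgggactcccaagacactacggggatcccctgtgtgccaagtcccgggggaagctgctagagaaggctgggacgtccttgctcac
ADAMTS15 upstream: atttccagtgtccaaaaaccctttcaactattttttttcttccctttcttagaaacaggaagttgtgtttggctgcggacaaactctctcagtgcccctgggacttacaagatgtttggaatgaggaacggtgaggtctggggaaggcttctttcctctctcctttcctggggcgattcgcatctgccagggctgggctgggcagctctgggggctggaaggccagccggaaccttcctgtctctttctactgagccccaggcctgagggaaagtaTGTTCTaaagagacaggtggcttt
ADAMTS15 intron: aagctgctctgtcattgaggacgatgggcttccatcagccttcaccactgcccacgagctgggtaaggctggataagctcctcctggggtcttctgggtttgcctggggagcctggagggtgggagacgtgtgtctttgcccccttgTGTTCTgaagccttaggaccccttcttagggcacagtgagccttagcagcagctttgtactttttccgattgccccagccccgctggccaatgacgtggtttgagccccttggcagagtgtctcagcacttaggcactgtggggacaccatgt
MMP17: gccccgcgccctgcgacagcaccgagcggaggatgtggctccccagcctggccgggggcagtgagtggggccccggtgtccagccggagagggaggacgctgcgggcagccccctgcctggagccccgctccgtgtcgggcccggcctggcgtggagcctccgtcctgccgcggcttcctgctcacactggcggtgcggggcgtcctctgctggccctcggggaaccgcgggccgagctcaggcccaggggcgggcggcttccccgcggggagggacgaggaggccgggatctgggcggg

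Both ADAMTS15 sequences held a single half-site, and the CTSH and MMP17 sequences held none. The best match to the full element was sought in the whole 300 bases, of which 227 are printed for CTSH. It had 3 mismatches at CTSH and at the upstream ADAMTS15 site and 5 at the other ADAMTS15 site and at MMP17. The MMP17 sequence was 78.3% G and C, against 51.7% in the upstream ADAMTS15 sequence.

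Expression was measured as FPKM, a fragment count scaled by transcript length and library size, and a gene's FPKM is the sum over its transcripts. Members with FPKM of at least 1 in at least 1 library were retained, and a fold change here is log2((R5020 FPKM + 1)/(EtOH FPKM + 1)), a scale that understates the change of low genes. Of the 101 members, 21 were retained, beside 11018 of all genes. At 3 h, MMP15, ADAMTS15 and CTSH were higher in R5020 by at least 1.5-fold, 3 of the 21, which is 14.3% beside a background of 7.67% over all retained genes. A single member, TIMP1, was at least 1.5-fold lower, which is 4.76% beside a background of 4.14%. By the plain FPKM ratio with no pseudocount, tried after seeing the data, MMP24 was lower as well and the count was 2, beside 7.67% of all retained genes lower on that scale. The other 17 moved by less than 1.5-fold, and the median log2 fold change of the 21 was -0.02, beside 0.01 over all retained genes. The members as a set therefore sat at the centre of the distribution, with 10 above 0 and 11 below, and a few single genes stood away from it.

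The coverage summed to 35151493 read equivalents of 50 nt in EtOH and 36203604 in R5020. The paper reports more uniquely mapped reads for EtOH than for R5020, which is the opposite order. Ratios of read equivalents below are set to equal coverage totals and depend on that choice. The luminal genes KRT19 (608 FPKM in EtOH and 477 in R5020), EPCAM (62.2 and 55.6), CDH1 (102 and 99.2) and PGR (23.7 and 15.3) were high in both libraries. VIM, FAP, PDGFRB, PTPRC, CD68, LYZ, PECAM1 and VWF were all under 1 in both libraries, and COL1A1 was at 5.12 and 3.31. KRT8 and KRT18, which this line should express strongly, were listed at 0 in EtOH with the quantification status FAIL and at 285 and 174 in R5020, so a listed 0 can be a failed estimate. All 169 member transcripts had the status OK in both libraries, and a member at 0 is reported below as listed at 0.

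**Figure D1:**
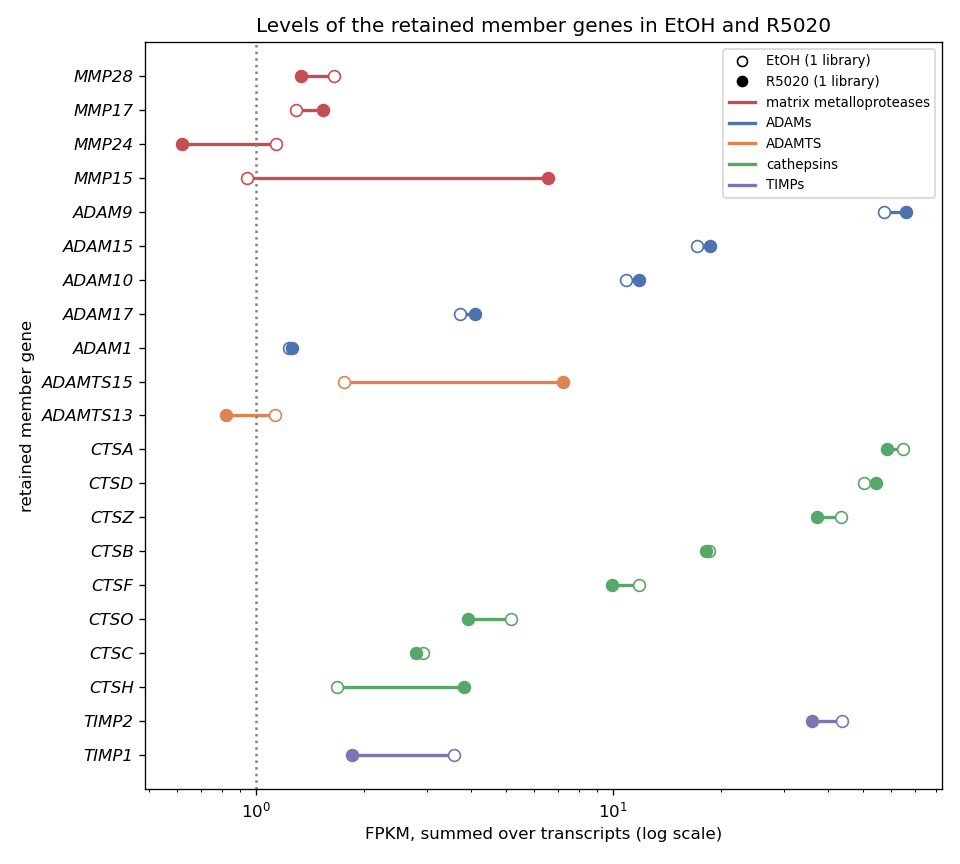
FPKM of the 21 retained members (log axis), 1 line per gene, with the EtOH library as an open circle and the R5020 library as a filled circle, coloured by family, and a dotted line at an FPKM of 1. MMP15, ADAMTS15 and CTSH span the longest gaps to the right, from 0.943 to 6.55, from 1.76 to 7.23 and from 1.69 to 3.83, and TIMP1 goes left from 3.57 to 1.85.

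MMP15, a membrane-type metalloprotease that cuts matrix proteins at the cell surface, showed the largest log2 fold change of any retained member. The library of vehicle-treated cells gave 0.943 FPKM and that of progestin-treated cells 6.55, so the log2 fold change was 1.96. The coverage behind these values corresponds to 384 and 2645 read equivalents, and their ratio, set to equal totals, was 6.69, with a 95% exact binomial interval of 6.01 to 7.46. The plain FPKM ratio was 6.94. The interval covers counting error only, not the choice of totals, and treats read equivalents as independent reads although both ends of a fragment are counted. Counted from the most abundant gene, MMP15 ranked at 10791 in EtOH and at 4675 in R5020. The gene lies at chr16:58059282-58080804 on the plus strand and is represented by 1 transcript of 4437 nt, overlapped by no other protein-coding gene. It was the one higher member with no PR site within 50 kb, the nearest, of score 71.91, lying 57.8 kb beyond its 3′ end.

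ADAMTS15, which encodes a secreted protease that cuts the proteoglycans aggrecan and versican, went from 1.76 FPKM in the EtOH library to 7.23 in the R5020 library. The log2 fold change was 1.58, on 952 and 3839 read equivalents, and the ratio of those was 3.92 (interval 3.65 to 4.21). It lies at chr11:130318869-130346539 on the plus strand, as 1 transcript of 5676 nt. There were 5 PR sites within 50 kb of it. The highest score, 141.75, belonged to the site 47.8 kb upstream shown above. That site lies 3.70 kb from the adjoining gene ADAMTS8, and the ADAMTS8 start is its nearest protein-coding start. The next score, 107.6, belonged to a site 9.76 kb past the 3′ end of ADAMTS15. The others scored 73.0 at 24.1 kb upstream, in an intron of ADAMTS8, 70.35 inside ADAMTS15 and 57.56 at 10.3 kb past its end. For 3 of the 5 the ADAMTS15 start was the nearest protein-coding start, and 3 of the 5 also lie within 50 kb of ADAMTS8. ADAMTS8, a protease of the same kind, was at 0.0216 FPKM in EtOH and 0.258 in R5020, below the filter in both libraries. Its read equivalents were 7 in EtOH and 89 in R5020.

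CTSH encodes a lysosomal cysteine protease that trims residues from the amino end of proteins. It was at 1.69 FPKM with vehicle and at 3.83 with R5020, and the log2 fold change was 0.85. The read equivalents were 237 and 511, with a ratio of 2.09 (interval 1.79 to 2.45). The gene occupies chr15:79214092-79237420 on the minus strand, as 1 transcript of 1485 nt. Its only site within 50 kb, at chr15:79236519-79237086 with a score of 168.89, was centred 0.618 kb downstream of the gene's start. GENCODE 44 also lists a start of CTSH farther away, so the same site is 5114 bases from the start used below for nearest-start counts.

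TIMP1, an inhibitor of most MMPs and of ADAM10, was lower after R5020, at 3.57 FPKM in EtOH and 1.85 in R5020. The log2 fold change was -0.68, on 304 and 150 read equivalents, with a ratio of 0.479 (interval 0.391 to 0.584). TIMP1 lies at chrX:47441690-47446190 on the plus strand, inside the gene SYN1 on the opposite strand, and SYN1 was listed at 0 in both libraries. The nearest PR site, of score 89.74, lay 58.7 kb away. Of the 4 changed members, 3 (MMP15, ADAMTS15 and TIMP1) have an FPKM outside the interval listed with it in at least 1 library, whereas CTSH lies inside in both, so those intervals are not used as errors here. The mismatch is not confined to changed genes. Of the 14 retained members with 1 transcript, 12 lay outside in EtOH and 11 in R5020. For CTSD the EtOH value of 50.3 stands beside an interval of 23.5 to 26.1, so the levels given below carry this uncertainty.

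**Figure D2:**
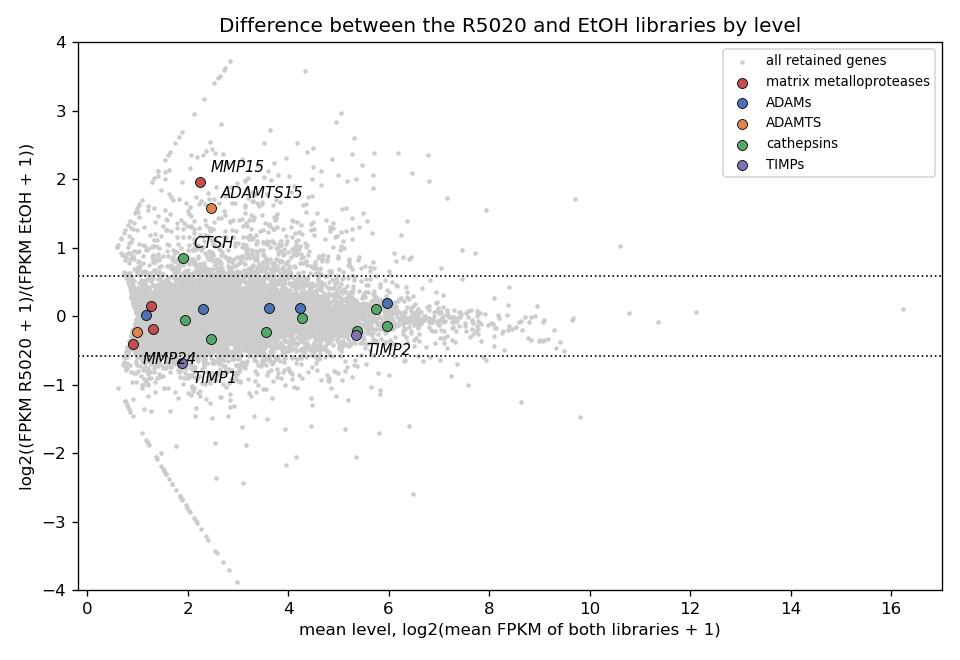
log2 fold change (R5020 over EtOH, pseudocount of 1) against the mean level in both libraries on a log2 scale, with all 11018 retained genes in grey, the 21 members coloured by family and dotted lines at 1.5-fold. The 50 genes beyond a log2 fold change of 4 in either direction are not drawn. MMP15, ADAMTS15 and CTSH lie above the upper line at 1.96, 1.58 and 0.85, TIMP1 lies below the lower one at -0.68, and the other members lie between them.

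Besides MMP15, 3 MMP genes were retained, all close to the filter. MMP24, another membrane-type enzyme, was at 1.13 FPKM with vehicle and at 0.618 with R5020 (log2 -0.40, and -0.87 with no pseudocount). Its 455 and 235 read equivalents gave a ratio of 0.501 (interval 0.427 to 0.588), a larger difference than on the scale with a pseudocount of 1, and the gene overlaps MMP24OS on the opposite strand. MMP17, which is tied to the membrane by a lipid anchor, was at 1.30 and 1.54 FPKM (log2 0.15). MMP28, a secreted enzyme of epithelia, was at 1.66 and 1.33 (log2 -0.19). Its read equivalents did not fall, at 145 in EtOH and 151 in R5020, with a ratio of 1.01 (interval 0.80 to 1.28). The direction at MMP24 was opposite to that at MMP15. The retained MMPs were thus mostly membrane-anchored, 3 of 4, and secreted MMPs were nearly absent, with 1 of 16 retained.

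The other 20 MMP genes were below the filter, and 12 of them were listed at 0 in both libraries, among them the collagenases MMP1 and MMP8 and the gelatinases MMP2 and MMP9. MMP25, a membrane-anchored enzyme of leukocytes, was at 0.0940 FPKM in EtOH and at 0.609 in R5020, where it was the highest of the 20. Its log2 fold change of 0.56 came close to the threshold, and 3 PR sites lay within 50 kb, 1 of them inside the gene with a score of 62.61. MMP21 was listed at 0 in EtOH and at 0.151 in R5020, and MMP16, the highest of the 20 in EtOH, was at 0.196 and 0.169. MMP23A and MMP23B are near-identical copies that cannot be told apart by uniquely mapped short reads, and both were listed at 0.

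The ADAM sheddases differed little between the libraries. ADAM9 was highest, at 57.3 FPKM in EtOH and 65.9 in R5020 (log2 0.20). ADAM15, which also carries an integrin-binding domain, was at 17.2 and 18.6 (log2 0.11). ADAM10, which cuts Notch receptors and E-cadherin, was at 10.8 and 11.8 (log2 0.11), and ADAM17, which releases TNF and ligands of the EGF receptor, was at 3.73 and 4.09 (log2 0.11). All 4 enzymes had the higher FPKM in R5020 by less than 1.5-fold. The ratio of read equivalents, set to equal totals, was 1.02 for ADAM10, 1.02 for ADAM15 and 1.01 for ADAM17. On those totals the intervals of ADAM10, ADAM15 and ADAM17 all included 1. The read counts given in the paper run in the opposite order to the coverage totals. These intervals, which cover counting error only, therefore do not decide a direction. Before scaling, the read equivalents were 4035 in EtOH and 4247 in R5020 for ADAM10. They were 4656 and 4892 for ADAM15, and 1230 and 1283 for ADAM17. For ADAM9 the ratio set to equal coverage totals was 1.08 (interval 1.06 to 1.09). The noncoding entry ADAM1, which overlaps MAPKAPK5, was at 1.24 and 1.26 (log2 0.01). None of the 8 ADAMs without a zinc site was retained, the highest being ADAM22 at 0.732 and 0.820, and 10 of the 25 ADAM entries were listed at 0 in both. ADAM8 was at 0.300 FPKM in EtOH and 0.115 in R5020.

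In the ADAMTS family only ADAMTS15 and ADAMTS13 were retained. ADAMTS13, the protease that cuts von Willebrand factor, was at 1.13 FPKM in EtOH and 0.822 in R5020 (log2 -0.22), on 495 and 342 read equivalents, and it overlaps REXO4 on the opposite strand. The 18 other ADAMTS entries had at most 0.184 FPKM in EtOH and 0.258 in R5020. The summed FPKM of the family was 3.70 in EtOH and 9.19 in R5020, nearly all of the difference being that of ADAMTS15.

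Cathepsins were the largest group by level, with 8 of 13 retained and a summed FPKM of 199 in EtOH and 189 in R5020. CTSA, a serine carboxypeptidase that protects lysosomal glycosidases, was at 64.8 and 58.4 (log2 -0.15). CTSD, an aspartic protease long studied in breast cancer cells, was at 50.3 and 54.5 (log2 0.11). CTSZ, a cysteine carboxypeptidase, was at 43.3 and 37.1 (log2 -0.22). These genes carried most of the family's level and moved by less than 1.5-fold. CTSB was at 18.5 and 18.2 (log2 -0.02), and CTSF at 11.8 and 9.89 (log2 -0.23). CTSO was at 5.17 and 3.91 (log2 -0.33). CTSC, which activates serine proteases of immune granules, was at 2.93 and 2.80 (log2 -0.05), all from transcripts covering part of its span. CTSH was therefore the least abundant retained cathepsin in EtOH and passed CTSC in R5020. Below the filter, CTSK was at 0.679 and 0.436, CTSS at 0.171 and 0.197, and CTSE, CTSG and CTSW were listed at 0 in both.

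TIMP2, which blocks MMPs and also helps MMP14 activate MMP2, was by far the most abundant TIMP, at 43.6 FPKM in EtOH and 36 in R5020 (log2 -0.27). TIMP3 was at 0.0366 and 0.0301, and TIMP4 was listed at 0 in EtOH and at 0.0340 in R5020. Both retained TIMPs had the lower value in R5020, and the summed FPKM of the family was 47.2 in EtOH and 37.9 in R5020. The summed FPKM of the MMPs ran the other way, from 5.53 to 11.3, nearly all of it from MMP15.

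No kallikrein was retained. The kallikreins are secreted serine proteases clustered on chromosome 19, and KLK2 and KLK3 are classical androgen receptor targets in the prostate. The 15 genes reached at most 0.323 FPKM in EtOH, at KLK10, and 0.199 in R5020, at KLK5. KLK3 was listed at 0 in EtOH and at 0.0690 in R5020, KLK2 was listed at 0 in both, and KLK4 was listed at 0 and 0.0258. These values are far below the level at which a difference between 2 libraries could be read.

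Several retained members have more than 1 transcript, and the transcript values moved where the gene sums did not. ADAM15 had 4 transcripts above 0, which share their start and extent. The transcript of 2964 nt was at 5.61 FPKM in EtOH and listed at 0 in R5020, whereas that of 2967 nt was listed at 0 in EtOH and at 6.16 in R5020. The other ADAM15 transcripts were at 5.69 and 6.65 (2820 nt) and at 5.86 and 5.83 (2892 nt). The complete exchange thus lay between models 3 nt apart in length while the gene sum moved by 0.11 on the log2 scale. CTSC showed the same form, with the transcript of 6135 nt at 1.47 in EtOH and listed at 0 in R5020 and that of 6091 nt at 1.46 and 2.80. The CTSC transcript of 1907 nt, the only one that spans the whole gene, was listed at 0 in both libraries. CTSA, CTSB and MMP28 each had the same leading transcript in both libraries. The leading CTSA transcript of 2240 nt held 82.1% of the gene's FPKM in EtOH and 85.9% in R5020, and the leading CTSB transcript of 3782 nt held 80.9% and 75.6%. MMP28 was represented in EtOH by its transcript of 1021 nt alone (1.66), with 1.18 in R5020, and the transcript of 2464 nt was listed at 0 and 0.156. Whether an exchange reflects the assignment of shared reads or a change of RNA was not tested.

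**Figure D3:**
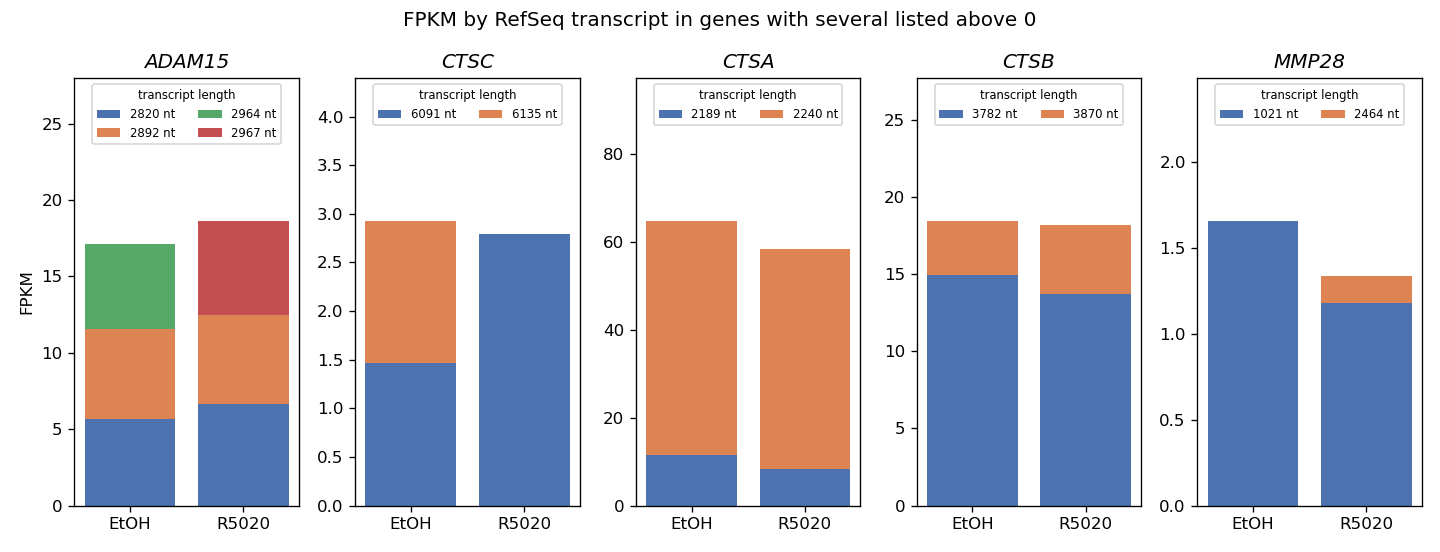
FPKM by RefSeq transcript (bars stacked from 0, coloured by transcript length in nt) in EtOH and R5020 for the 5 retained members with more than 1 transcript above 0, each panel on its own scale. The ADAM15 total is 17.2 and 18.6 while its top segment is the 2964-nt model in EtOH and the 2967-nt model in R5020, and CTSC keeps a total of 2.93 and 2.80 while 1 of its 2 segments disappears.

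PR sites were compared with the members by distance, counting a site whose edge lies in or within 50 kb of the span of any transcript of the gene. Of the 21 retained members, 13 (61.9%) had such a site, beside a background of 52.7% of all retained genes. A site inside the gene was found in 8 (38.1%), beside 22.5% of all retained genes, and the median span was 25.6 kb for these members and 27.6 kb for all. Of the 80 members below the filter 40 (50%) had a site within 50 kb, beside a background of 39.2% of all genes below it. With 2 of 3 higher members, 0 of 1 lower and 11 of 17 others holding a site, the presence of a site did not part the members that changed from those that did not. Over all retained genes the same shares were 61.4% of those higher, 61% of those lower and 51.5% of the rest.

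The highest site scores, 877.35 and 448.01, lay within 50 kb of ADAM15 and MMP17, which moved by less than 1.5-fold. The MMP17 site, at chr12:132314385-132315616, had a score of 448.01, lay 2.06 kb downstream of the start and was accompanied by a second intronic site of score 72.53. MMP17 was at 1.30 and 1.54 FPKM, close to the filter. ADAM15 had 16 sites within 50 kb, the largest number of any member, and it was at 17.2 and 18.6. Among them, that of score 877.35 lay 33.6 kb away in an exon of ZBTB7B, whose start was its nearest protein-coding start. Only 2 of those 16 had the ADAM15 start as their nearest protein-coding start. ADAMTS13 had 15 sites, 5 of them inside the gene, with a highest score of 138.22, and 2 of the 15 were nearest to its own start. TIMP2 had 5 sites, 3 of them inside the gene and 1 at 0.12 kb from its span, with a highest score of 95.37. CTSA had 6, CTSZ 3, CTSF 3, MMP28 4, CTSD 2, and MMP24 and ADAM9 1 each. For CTSA one site, of score 82.39, lay in an exon near the start. Its nearest protein-coding start, at 84 bases, was that of NEURL2, which overlaps CTSA on the opposite strand. Of the 6 CTSA sites, 0 had the CTSA start as their nearest protein-coding start. The members with no site within 50 kb were MMP15, TIMP1, CTSO, CTSC, CTSB, ADAM1, ADAM17 and ADAM10.

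**Figure D4:**
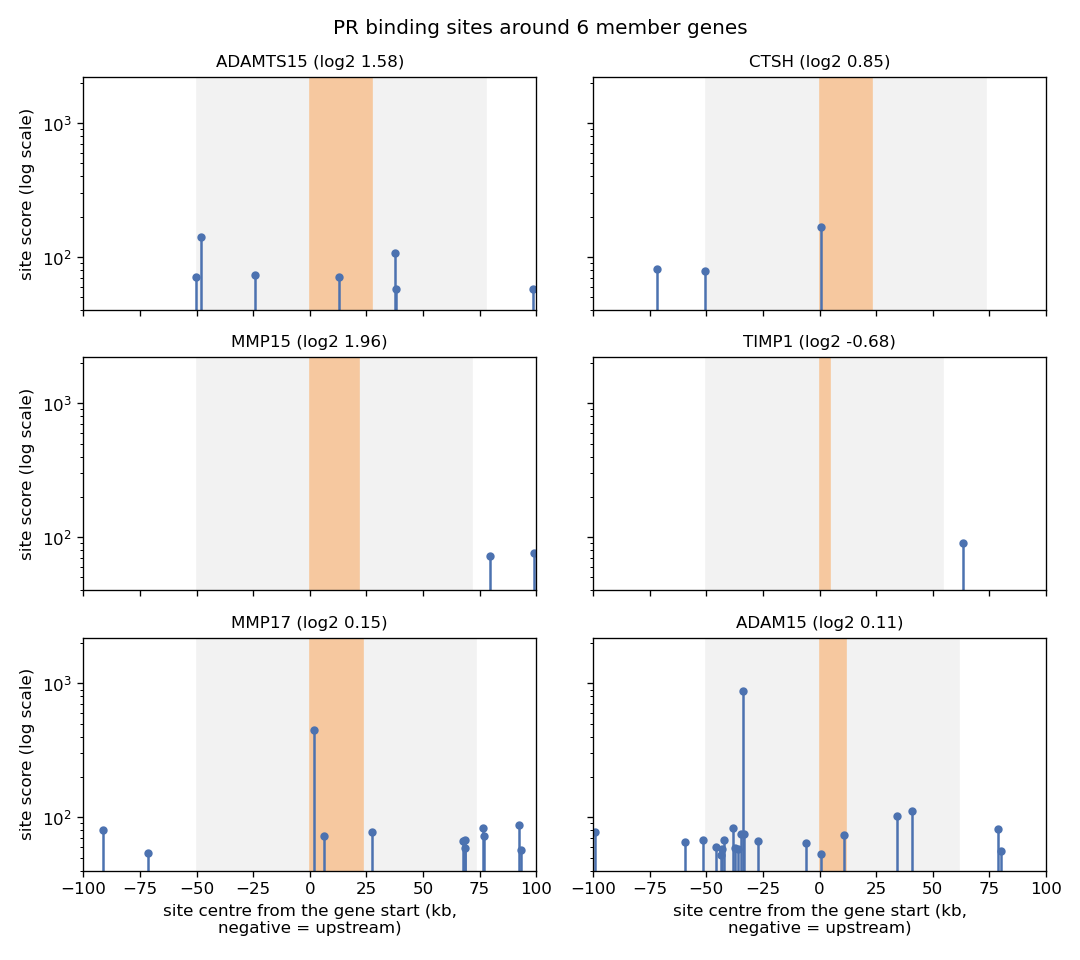
PR binding sites within 100 kb of the start of 6 members, by distance of the site centre from the gene start (kb, along the gene's strand) and by score (log axis), with the gene span in orange and the 50 kb on each side in grey. ADAMTS15 has 5 sites in the shaded range and CTSH has 1 at 0.618 kb, and MMP15 and TIMP1 have none. The tallest lines, 448.01 and 877.35, stand in the panels of MMP17 and ADAM15, whose log2 fold changes were 0.15 and 0.11. The line of 877.35 is a site in an exon of ZBTB7B.

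In all, 131 distinct sites lay within 50 kb of a member, and 12 of them within 50 kb of more than 1. Their median score of 74.5 equalled that of all 11181 sites, and 17.6% had a score of 100 or more, beside 16.3% of all sites. By the site midpoint, 65 lay in an intron, 39 in an exon and 27 between protein-coding genes. For 46 of the 131 the nearest protein-coding start was that of a member, and for 15 of the 68 near a retained member it was that of the retained member itself. Most of the sites counted for these genes thus lie closer to the start of some other gene.

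Half-sites were searched in the central 300 bases of each site, as AGAACA or TGTTCT, which are each other's reverse complement, so both strands are covered. A half-site was present in 16 of the 131 windows (12.2%), in 7 of the 68 near retained members (10.3%), and in 17.7% of the 11178 sites with a window. The full element, both half-sites as an inverted repeat 3 bases apart with up to 2 mismatches, was present in 2 of the 131 (1.53%), in 0 of the 68 and in 2.46% of all windows. The 250 bases before the start of 13 retained members were found in the RefSeq promoter table of GRCh38.p14, and only that of MMP24 held a half-site, beside 12.4% of all 35116 promoters. The promoters of MMP15, CTSH and TIMP1 held none, and that of ADAMTS15 was not found there and was not searched.

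Members below the filter with a site near them were spread over every family. Among the MMPs these were MMP8, MMP9, MMP10, MMP16, MMP19, MMP21, MMP23A, MMP23B, MMP25 and MMP27. MMP9 had 7 sites within 50 kb, the highest of score 85.74, and was listed at 0 in both libraries. MMP8, MMP10 and MMP27 share the site of score 147.27. The ADAMs with a site were ADAM8, ADAM11, ADAM19, ADAM32 and ADAM33, of which ADAM11 had 4 inside the gene, the highest of score 139.62, at 0.117 FPKM in EtOH and 0.0605 in R5020. The ADAMTS genes with a site were ADAMTS2, ADAMTS3, ADAMTS4, ADAMTS6, ADAMTS7, ADAMTS8, ADAMTS16, ADAMTS17, ADAMTS19 and ADAMTS20. ADAMTS3 held a site of score 141.75 in an intron and was listed at 0 in EtOH and at 0.0225 in R5020. CTSE, CTSK and CTSW had a site, and CTSW had 7 while listed at 0 in both. TIMP3 held an intronic site of score 124.19, and TIMP4 one of score 52.96. The 10 kallikreins with a site (KLK1, KLK2, KLK3, KLK5, KLK6, KLK7, KLK8, KLK9, KLK10 and KLK15) share 2 sites, one inside KLK15 with a score of 67.76 and one inside KLK6 with a score of 79.33. Sites near genes with little or no RNA were therefore common in these families, as among all genes below the filter.

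Inhibitors, activators and partners of these proteases that the symbol rule does not take were listed as well, 40 in all, of which 38 were found and 21 retained. Of the 21, 1 was at least 1.5-fold higher and 2 were at least 1.5-fold lower, beside 7.67% and 4.14% of all retained genes, and their median log2 fold change was -0.18, beside 0.01. Both lower genes are inhibitors. CST3, cystatin C, the secreted inhibitor of cysteine cathepsins, was at 24.3 FPKM in EtOH and 12.5 in R5020 (log2 -0.91) and holds 2 PR sites. SPINT2, an inhibitor of membrane serine proteases such as matriptase, was at 125 and 78.8 (log2 -0.65) and has 1 site within 50 kb. TSPAN5, a tetraspanin that escorts ADAM10 to the cell surface, was the higher one, at 2.39 and 4.26 (log2 0.63). Of the 5 retained inhibitors on that list, CSTB (42.2 and 37.1), SPINT1 (61.3 and 57.9) and SERPINB6 (12 and 15.3) moved by less than 1.5-fold. The matriptase gene ST14 was at 49.0 and 45.1, and the cathepsins outside the rule, CTSL1 and CTSL2, were at 2.76 and 2.05 and at 1.36 and 1.29.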

How the data were processed

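Poly(A)+ RNA from EtOH- and R5020-treated T47D cells (1 library each) and PR-immunoprecipitated DNA were sequenced as paired 50-nt reads. The authors aligned RNA reads to hg19 with TopHat 2, discarding reads that mapped to several places, and quantified RefSeq transcripts with Cufflinks, and they deposited FPKM (fragments scaled by length and library size), the transcript length and the coverage signal of each transcript. ChIP reads were aligned with Bowtie 1.1.2 and sites were called with MACS against input DNA, and the deposited score is the one in the site file. The counting strand is not given in the sources used here, so opposite-strand overlaps could add reads.

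From these files, FPKM was summed by gene symbol, genes with FPKM of at least 1 in either library were kept, and log2 ratios used a pseudocount of 1 and a threshold of 1.5-fold. The filter and the threshold are those of the study's methods, whereas the pseudocount was added here. The study's gene calls also required a p-value cut-off from Cuffdiff 2, which was not applied here. Read equivalents are coverage times length divided by 50. No test was possible with 1 library per condition. Every retained member was named, and those below the filter when a site lay near them or as families by range. Site positions were taken as 0-based starts and are printed 1-based. All coordinates fitted the GRCh37 chromosomes, and exons, introns and UTRs are from GENCODE 44 lifted to that build. Members and gene lists were chosen with earlier results of these data known. The scripts (Python 3.11.15, pandas 2.3.3) were tested on simulated data. Alternatives were another pseudocount, none (added after seeing the data), other FPKM filters, a 2-fold threshold, rescaling, each gene's highest transcript instead of its sum, status OK alone, and other site distances and scores.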

Additional observations from a re-analysis of the deposited data

How the results depend on the processing

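The members higher after R5020 were 3 with a pseudocount of 0.1, with none, with FPKM of at least 2 in 1 library, without a filter, after rescaling and with status OK alone. They were 2 with FPKM of at least 1 in both libraries, where MMP15 drops out, 2 at 2-fold, where CTSH drops out, and 4 when a gene's highest transcript replaced its sum, where CTSC joins at a log2 fold change of 0.62. The members lower were 2 with a pseudocount of 0.1, where MMP24 joins at -0.78, 2 with no pseudocount (chosen after seeing the data), where it joins at -0.87, 0 at 2-fold, where TIMP1 drops out, and 1 otherwise. Over all genes the same settings gave 1092 higher and 787 lower with a pseudocount of 0.1, 1127 and 845 with none, and 378 and 144 at 2-fold, beside 845 and 456 as reported. In shares of retained genes these are 9.91% and 7.14%, 10.2% and 7.67%, 3.43% and 1.31%, and 7.67% and 4.14%. With FPKM of at least 1 in both libraries 6.47% were higher and 2.92% lower, and with at least 2 in 1 library 8.18% and 4.13%. Without a filter the shares were 3.78% and 2.06%, after rescaling 7.55% and 4.3%, and with status OK alone 7.67% and 4.11%. With the highest transcript they were 7.99% and 4.61%. Retained members with a PR site were 13 within 50 kb, 11 within 10 kb, 16 within 100 kb, 8 with a site overlapping the gene and 6 with sites of score 100 or more, beside 52.7%, 33%, 64.3%, 22.5% and 18.1% of all retained genes in the same order. No log2 fold change of a retained member changed sign under a pseudocount of 0.1 or none, rescaling or status OK alone. With the highest transcript CTSC went from -0.05 to 0.62. No replicate could be left out. No paired analysis was possible because each condition has 1 library. Coverage was low for some members, such as CTSH with 237 read equivalents in EtOH and TIMP1 with 150 in R5020.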
